A study of Rattus norvegicus with 6 samples.

Results

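Agr2 and Agr3, 2 neighbouring genes of the anterior gradient family, were followed through the epithelial cells of the rat pancreas, 2 of the 32883 genes in the deposited matrices. Both had been singled out because of their levels in these data, so their levels in ductal, acinar, islet and immune cells are described here without a test. The cells came from male Wistar rats in 3 groups of 2 rats, with 1 library per rat. Young rats were 2 months old and ate normal chow, old rats had stayed on the normal diet to the age of 20 months, and HFHF-old rats had eaten a high-fat high-fructose diet over the same 18 months. Cells were prepared by an islet isolation (collagenase P and a density gradient), so that the pancreas was not sampled evenly, and nothing in the labels says how the 2 rats of a group differ.

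Agr2 and Agr3 proteins belong to the protein disulfide isomerases, which form and exchange disulfide bonds in proteins folding in the endoplasmic reticulum. Agr2 is best known from mucus-secreting epithelium, where it is needed for the folding of gel-forming mucins, and it is often raised in adenocarcinomas, those of the pancreas included. Agr3 is known from ciliated airway cells, and Txndc12, the remaining member of the family, is a thiol-disulfide oxidoreductase of the same compartment.

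The genes lie side by side on chromosome 6 with 0 annotated genes between them in RefSeq's GRCr8 annotation, while the deposited counts were made on Rnor_6.0. The 250 bases before each RefSeq start (GRCr8, plus strand, chr6:58435658-58435907 for Agr2 and chr6:58370451-58370700 for Agr3) are shown because the 2 neighbours were found together in only 7 cells, 1 of which held more of each gene than any other cell. Capitals mark matches to any of 4 short motifs searched on both strands, TGTTTNC of forkhead factors, TTTATNG of Cdx factors, AGATAA of GATA factors and ACGTG of factors of the unfolded protein response.
Agr2: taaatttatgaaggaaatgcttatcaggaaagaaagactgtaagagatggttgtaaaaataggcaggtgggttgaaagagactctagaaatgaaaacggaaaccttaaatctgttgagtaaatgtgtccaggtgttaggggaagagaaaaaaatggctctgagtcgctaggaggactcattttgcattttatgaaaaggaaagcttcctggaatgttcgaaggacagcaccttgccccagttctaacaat
Agr3: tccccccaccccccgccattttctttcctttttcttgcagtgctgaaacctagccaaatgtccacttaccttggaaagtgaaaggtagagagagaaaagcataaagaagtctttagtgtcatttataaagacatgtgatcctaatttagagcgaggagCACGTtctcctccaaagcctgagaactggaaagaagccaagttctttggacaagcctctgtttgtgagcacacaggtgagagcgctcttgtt
Agr3 held 1 match, to ACGTG on the minus strand, 92 bases before the start and overlapping no other motif, and Agr2 held 0 matches. Of all 33469 windows of 250 bases, 16.6% held ACGTG, 18.3% TGTTTNC, 10.1% TTTATNG and 10.3% AGATAA. These letters are a description of the windows and not of bound sites.

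A total of 75201 of 78024 barcodes passed the filters, 7381 to 17443 per library, with a median of 2537 to 9391.5 UMIs (unique molecular identifiers, counts of distinct captured RNA molecules) per cell. The ductal rule (Epcam plus 2 of Krt19, Sox9 and Cftr) gave 344 cells, the acinar rule (20% of UMIs from digestive enzymes) 2307 cells, and the islet rule (10% of UMIs from the islet hormone genes together, with beta, alpha, PP or delta given by the largest) 5548 cells. Immune cells (Ptprc plus a leukocyte marker, no Epcam) numbered 39566, and stromal cells (3 or more of 5 fibroblast genes such as Col1a1, no Ptprc) 10271. A cell that met 2 definitions was left out of both. HFHF-old replicate 2 stood apart, with 5 islet, 3 ductal and 58 acinar cells among 11716, so that most statements on epithelium of HFHF-old rats rest on replicate 1 alone. The ductal label was checked against the 11 measured duct markers that do not define the class. In the 5 rats with 16 or more ductal cells, their summed level was 9202 to 17799 CPM (counts per 1000000, the UMIs of a gene or list over all UMIs of that class in that rat) in ductal cells and 477 to 675 CPM in the islet cells of the same rats. The rule was met mainly through Sox9 (336 cells) and Cftr (343 cells), and Krt19 was seen in 34 cells. Between 20 and 69 barcodes were shared by any 2 libraries.

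Few UMIs of Agr2 lay in the ductal, acinar and islet classes, which had 344, 2307 and 5548 of the 75201 cells. For Agr3 the share in these classes depended on a single barcode. Agr2 gave 577 UMIs in 315 cells, and 17 of these UMIs (2.95%) lay in the 3 epithelial classes together. Agr3 gave 308 UMIs in 90 cells, 21 of them (6.82%) in the 3 classes. A single barcode outside these classes held 132 Agr2 and 200 Agr3 UMIs. Without it the totals were 445 and 108, and 17 of the 445 Agr2 and 21 of the 108 Agr3 UMIs lay in the 3 classes. The share of Agr3 was then above the share of cells in these classes, while that of Agr2 stayed below it. Cells with Epcam, that barcode included, held 154 of the 577 Agr2 and 245 of the 308 Agr3 UMIs. Of the cells that held Agr2, 263 held a single UMI, and of those that held Agr3, 78 did. The 2 genes were found together in 7 cells.

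**Figure D1:**
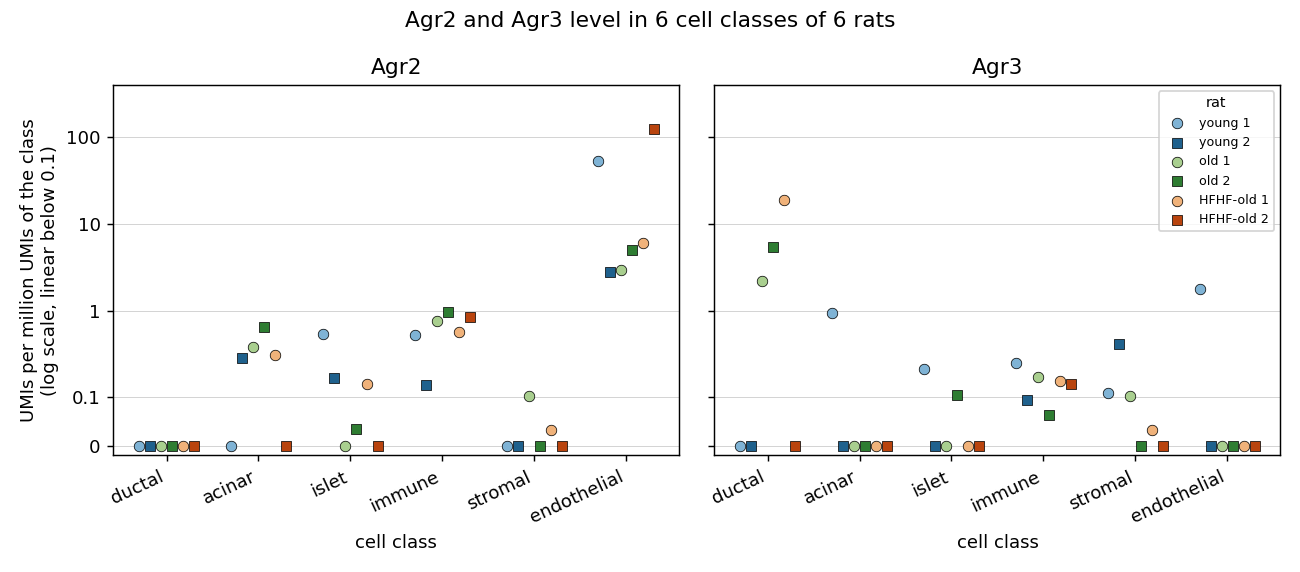
UMIs of Agr2 (left) and Agr3 (right) in CPM of a cell class, 1 point per rat, on a log scale that is linear below 0.1. Agr2 was at 0 in the ductal cells of all 6 rats and highest in endothelial cells, whereas Agr3 was above 0 in the ductal cells of 3 rats.

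Agr2 was not detected in ductal cells. In 344 ductal cells with 3070220 UMIs it had 0 UMIs, which allows up to 0.977 CPM and a share of up to 0.872% of cells with a UMI, which is no limit on cells that express the gene (3 counts; this and all intervals below cover counting error only). The single rats, with fewer cells, set looser limits, from up to 2.68 CPM in the 180 ductal cells of old replicate 2 to 16.8 CPM in the 16 cells of young replicate 2, and the 3 cells of HFHF-old replicate 2 say almost nothing. In acinar cells Agr2 had 6 UMIs, each in a cell of its own, at 0.322 CPM (95% exact Poisson interval 0.118 to 0.70). By rat these were 0, 0.286, 0.384, 0.651, 0.310 and 0 CPM in young 1, young 2, old 1, old 2, HFHF-old 1 and HFHF-old 2. Both old rats were above the other 4, but each of the 6 values rests on 0 to 3 UMIs.

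In islet cells Agr2 had 11 UMIs in 5548 cells, 0.144 CPM (0.0717 to 0.257). By rat the level was 0.533 and 0.168 in the young rats, 0 and 0.0354 in the old rats, and 0.143 and 0 in the HFHF-old rats. In young replicate 2, 2169 cells met 2 definitions, and with such cells kept its islet cells held 15 Agr2 UMIs in 4123 cells instead of 4 in 2093. Its immune cells then held 13 in 4504 cells instead of 3 in 3188, and the ratio of islet to immune CPM was 0.928 (0.412 to 2.12). Of the 11 islet UMIs of all rats, beta cells (insulin) held 6 in 2731 cells, alpha cells (glucagon) 4 in 1647 cells, PP cells (pancreatic polypeptide and Pyy) 1 in 1128 cells and delta cells (somatostatin) 0 in 42 cells. Mean islet CPM was 0.350 ± 0.258 for the young group and 0.0177 ± 0.0251 for the old group (SD, n = 2 each), and the counting intervals of young replicate 2 (0.0457 to 0.429) and old replicate 2 (0.000897 to 0.197) overlapped. The 0 of HFHF-old replicate 2 rests on 5 cells, which allow up to 39.6 CPM, so the HFHF-old level is that of replicate 1 alone (0.00362 to 0.796), and its interval overlapped those of both other groups.

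Agr3 was at 0 in the ductal cells of both young rats and of HFHF-old replicate 2. It reached 2.20 CPM in old replicate 1, 5.36 in old replicate 2 and 18.9 (7.61 to 39.0) in HFHF-old replicate 1, where 4 of 23 ductal cells held 7 UMIs. The UMIs of old replicate 2 and HFHF-old replicate 1 all lay in 6 cells that also held 3 or more of the 5 gut genes Fabp1, Rbp2, Apoa1, Alpi and Si, and both rats were at 0 without them. Mean CPM was 0 for the young and 3.78 ± 2.23 for the old group (SD, n = 2 each). The zeros of the young rats rest on 42 and 16 ductal cells, which allow up to 6.44 and 16.8 CPM. Both limits are above the 2 old values, so no difference with age is read from them. The 0 of HFHF-old replicate 2 rests on 3 cells, which allow up to 124 CPM. In acinar cells Agr3 had 1 UMI, in young replicate 1. In islet cells it had 5 UMIs, 2 in young replicate 1 and 3 in old replicate 2, and it was at 0 in both HFHF-old rats.

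Near the limits of the class definitions few UMIs were found. Cells with a hormone share of 10% to 11% (278 cells) and of 9% to 10% (336 cells) held 0 UMIs of both genes. Cells with an enzyme share of 20% to 22% (160 cells) held 0 UMIs of both, and those with 18% to 20% (235 cells) held 3 of Agr2 and 0 of Agr3.

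The level in HFHF-old islet cells was set against immune cells of the same library, which carry free RNA from burst cells. For Agr2 the immune level need not be free RNA alone. In HFHF-old replicate 1 stromal cells held 1 Agr2 UMI in 2223 cells and immune cells held 44 in 6847. The comparison therefore cannot show whether islet Agr2 was above free RNA, and the source of immune Agr2 was not tested. How evenly free RNA was spread was read from Prss1, the trypsinogen of acinar cells. In HFHF-old replicate 1 it was even, with 31.6 UMIs per islet cell, 32 per immune cell and 31.2 per stromal cell, against 2476 per acinar cell. It was as even in young replicate 1, with 3.48, 3.71 and 3.56, although Gcg there gave 6.18 UMIs per stromal and 3.38 per immune cell. It was less even in the other rats. Young replicate 2 had 118 Prss1 UMIs per islet cell and 18.6 per immune cell. Old replicate 1 had 18.7 and 10.5, and old replicate 2 had 3.91 and 2.55. Per cell, islet cells thus held more acinar RNA than immune cells in these 3 rats. In CPM the summed acinar enzymes were higher in islet cells in young replicate 2 (40663 against 11279). They were lower in old replicate 1 (4786 against 5839) and old replicate 2 (1409 against 2821). In HFHF-old replicate 2 stromal cells held 0.713 and immune cells 0.350. In HFHF-old replicate 1 Ins1, insulin of the beta cells, gave 16.6 UMIs per immune and 16.4 per stromal cell. Gcg, glucagon, gave 0.584 UMIs per immune and 0.514 per stromal cell. Krt19 gave 0.739 UMIs per ductal cell, 0 in islet cells and 0.000438 per immune cell.

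Agr2 in the islet cells of HFHF-old replicate 1 was not above the level in immune cells, while against stromal cells, with 1 UMI on each side, the ratio in CPM was 4.34 (0.0553 to 341). There was 1 UMI in 297 islet cells (0.143 CPM, 0.337% of cells) and there were 44 UMIs in 6847 immune cells (0.570 CPM, 0.643% of cells). The islet level was 0.251 times the immune level (0.00620 to 1.47) in CPM and 0.524 times (0.0130 to 3.08) per cell, so the interval covers equal levels on both scales. With no limit on gene number, which had removed 521 barcodes from this rat, the ratio in CPM was 0.135 (0.00335 to 0.792), and the islet level was then the lower. At the immune rate per cell, 1.91 Agr2 UMIs would lie in these islet cells. Islet cells of that rat were deeper, with a median of 20760 UMIs against 9682 in immune cells. After each cell was thinned to 2000 UMIs, which left 220 islet and 6506 immune cells, the expected share of cells with Agr2 was 0.0280% and 0.148%. The islet figure is that of a single UMI, and no order is read from it. HFHF-old replicate 2 had 0 UMIs in 5 islet cells and 82 UMIs in 10139 immune cells, and 5 cells allow no comparison. Agr3 had 0 UMIs in the islet cells of both HFHF-old rats, which allows up to 0.429 CPM in replicate 1, and 12 and 14 UMIs in their immune cells.

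In the other 4 rats no interval against immune cells lay wholly above equal levels. The ratio of islet to immune CPM was 1.03 (0.310 to 2.71) in young replicate 1 with 5 and 27 UMIs, 1.19 (0.201 to 8.12) in young replicate 2 with 4 and 3 UMIs, and 0.0367 (0.000899 to 0.221) in old replicate 2 with 1 and 30 UMIs. In old replicate 1 islet cells had 0 and immune cells 31 UMIs, with an upper bound of 0.644 on the ratio. For Agr3 it was 0.855 (0.0937 to 3.78) in young replicate 1 and 1.65 (0.189 to 19.8) in old replicate 2. These intervals included 1 except for Agr2 in both old rats, where the islet level was the lower. That held in old replicate 2 but not in old replicate 1 when UMIs were counted per cell (upper bounds of 0.656 and 1.36), and in neither old rat against immune cells without Siglech, Cd79b, Irf8 and Vwf (upper bounds of 2.59 and 1.01). Against the same restricted immune cells Agr2 in young replicate 1 had a ratio of 5.05 (0.983 to 32.6), with 5 and 3 UMIs. Against stromal cells the picture in young replicate 1 differed, with 5 Agr2 UMIs in 624 islet cells and 0 in 3923 stromal cells, a ratio in CPM with a lower bound of 2.62.

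**Figure D2:**
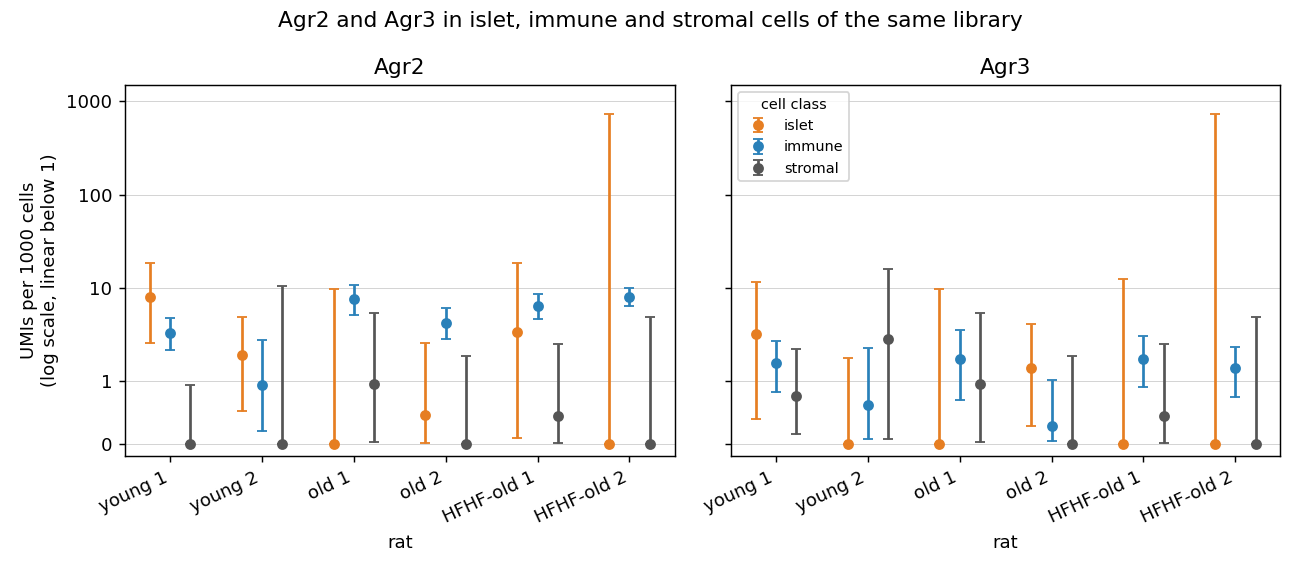
UMIs of Agr2 (left) and Agr3 (right) per 1000 islet, immune and stromal cells of each rat with 95% exact Poisson intervals, on a log scale that is linear below 1. In HFHF-old replicate 1 the islet point for Agr2 lay below the immune point with an interval that covers it, and the 5 islet cells of HFHF-old replicate 2 left an interval too wide to compare.

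The Agr2 level of immune cells was above that of stromal cells. Stromal cells, which held as much Prss1 and Ins1 per cell in HFHF-old replicate 1, had 2 Agr2 UMIs in 10271 cells (0.0246 CPM, 0.00297 to 0.0887) against 217 UMIs in 39566 immune cells (0.679 CPM, 0.592 to 0.776). The immune level was 0.518 and 0.141 CPM in the young rats, 0.754 and 0.966 in the old rats and 0.570 and 0.848 in the HFHF-old rats, with means of 0.329 ± 0.267, 0.860 ± 0.15 and 0.709 ± 0.196 (SD, n = 2 each). Old and HFHF-old ranges overlapped, and the higher young rat lay below all 4 older ones. Agr2 differed between immune cells split by single genes, a split made after these values were seen. The subsets overlap, since a cell can hold UMIs of several of these genes. Splits by Cd3e, Nkg7, Lyz2, C1qa and Irf8 are not given. Immune cells with a UMI of Vwf, a gene known from endothelium, had 4.78 CPM (3.15 to 6.96, 477 cells), with 12 of their 27 Agr2 UMIs in 4 cells of young replicate 1. Cells with a UMI of Siglech, a receptor known from plasmacytoid dendritic cells, had 3.93 CPM (2.52 to 5.85, 518 cells), those with Cd79b, a part of the B cell receptor, 2.15 (1.25 to 3.44, 777 cells, with 9 of the 17 UMIs in old replicate 2), those with Cd3g, a part of the T cell receptor complex, 1.87 (1.49 to 2.33, 5525 cells), and those with Csf1r, the receptor of macrophage growth factors, 0.368 (0.275 to 0.482, 16793 cells). Among genes found in at least 25% of the 199 immune cells with Agr2, those raised most by fold over other immune cells were AABR07060872.1, AABR07065625.1, Tcf4 (a transcription factor), Tex2 and Tspan13. Irf8, found in 58.3% of these cells, was among the 15 raised most. Siglech, Cd79b, Cd3g and Csf1r were not. Agr3 was at 0.157 CPM in immune cells (0.116 to 0.206) and 0.0737 in stromal cells (0.0270 to 0.160).

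Pooled over all 6 rats, and leaving out unclassified cells, the order of Agr2 levels was endothelial, immune, acinar, islet and stromal. Single rats differed from it. Young replicate 1 had 0.533 CPM in islet, 0.518 in immune and 0 in acinar cells. Young replicate 2 had 0.286 in acinar, 0.168 in islet and 0.141 in immune cells. In old replicate 1 stromal cells (0.104) were above islet cells (0). Ductal cells, with a limit of 0.977 CPM, lay below endothelial cells in the pooled values and cannot be placed among the others. By rat, the ductal limit was above the endothelial level in young replicate 2 (16.8 against 2.79 CPM) and old replicate 1 (3.29 against 2.92). So it was in HFHF-old replicate 1 (8.11 against 5.99). It was below in young replicate 1 (6.44 against 53.6), and nearly equal in HFHF-old replicate 2 (124 against 125). In old replicate 2 it was below the endothelial value (2.68 against 5.05) but inside its interval (1.38 to 12.9, 4 UMIs), so no order is read there. Endothelial and immune ranges over rats did not overlap, while immune, acinar and islet ranges did. For Agr3 the ranges over rats of every pair of these 6 classes overlapped, and no order is given.

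In endothelial cells, which line vessels and were defined by 2 of Cdh5, Flt1, Vwf and Plvap without Ptprc, Agr2 had 147 UMIs in 1317 cells, 29.7 CPM (25.1 to 34.9). The rats differed widely. Young replicate 1 had 53.6 and young replicate 2 had 2.79 CPM, the old rats had 2.92 and 5.05, and the HFHF-old rats had 5.99 and 125. The group means were 28.2 ± 36.0, 3.98 ± 1.51 and 65.5 ± 84.1 CPM (SD, n = 2 each), and the SD exceeded the mean in the young and HFHF-old groups. The young range enclosed the old range, and the lower HFHF-old value (2 UMIs) was next to the higher old one (4 UMIs). Most of the 147 endothelial Agr2 UMIs lay in cells with a UMI of Vwf, the von Willebrand factor stored by endothelium, a split chosen after these values were seen. The 188 cells with Vwf held 138 UMIs (122 CPM, 102 to 144) and the 1129 cells without it held 9 (2.36 CPM, 1.08 to 4.48). Of the 138, 89 were in young replicate 1 (62 cells) and 44 in HFHF-old replicate 2 (28 cells), while young replicate 2 (27 cells), old replicate 1 (21), old replicate 2 (36) and HFHF-old replicate 1 (14) held 3, 1, 0 and 1. Median depth was 5162 UMIs in cells with Vwf and 2697 in those without. In the endothelial cells with Agr2, Olr1, Slc4a10, Nrg1, Insr and Sulf1 were the genes raised most over other endothelial cells. Of those 50 cells, 31 were from young replicate 1 and 10 from HFHF-old replicate 2, and differences between libraries cannot be told apart from it. The part of vessel type and of depth in these differences was not tested.

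**Figure D3:**
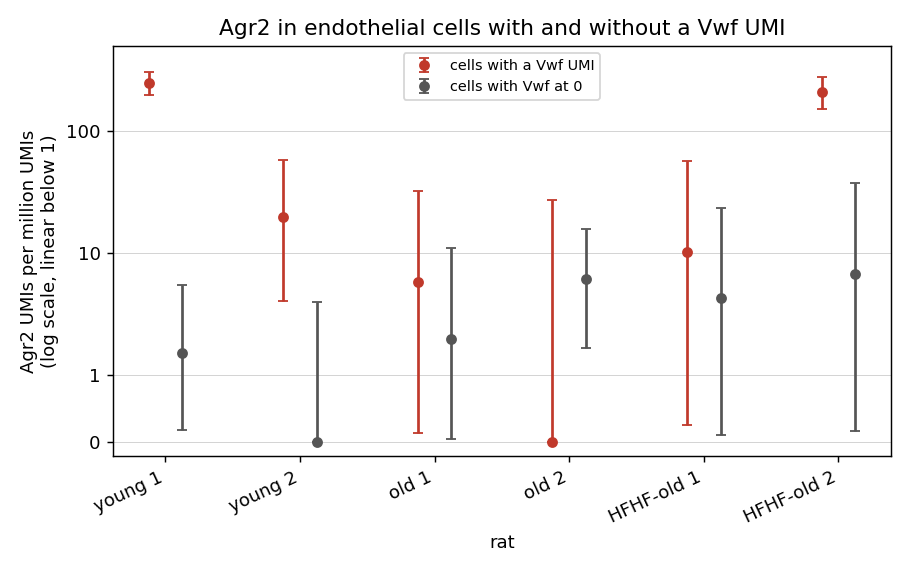
Agr2 UMIs in CPM of endothelial cells with (red) and without (grey) a Vwf UMI in each rat, with 95% exact Poisson intervals, on a log scale that is linear below 1. Young replicate 1 and HFHF-old replicate 2 stood apart at 246 and 208 CPM in cells with Vwf.

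**Figure D4:**
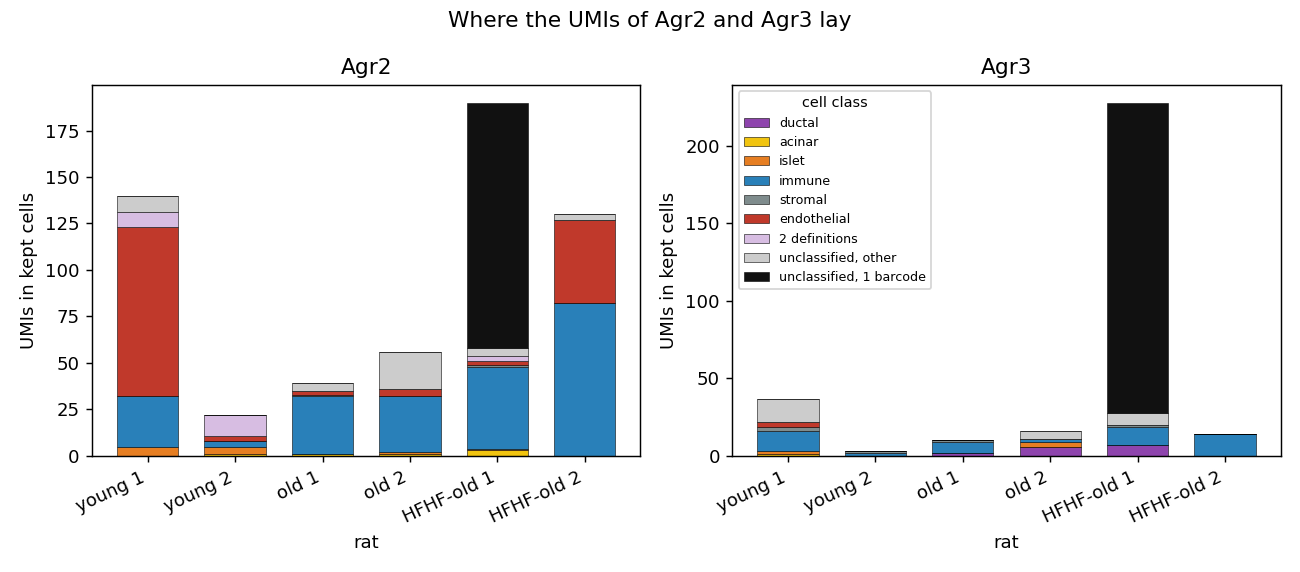
UMIs of Agr2 (left) and Agr3 (right) in each rat, stacked by cell class, with the barcode of HFHF-old replicate 1 that held 132 Agr2 and 200 Agr3 UMIs in black. Without that barcode HFHF-old replicate 1 would hold 58 UMIs of Agr2 and 28 of Agr3.

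A single barcode of HFHF-old replicate 1 held 132 of that rat's 190 Agr2 UMIs and 200 of its 228 Agr3 UMIs. It had 26647 UMIs over 5704 genes, met no class definition and was not among the barcodes most like simulated doublets. Its leading genes were Gast (690 UMIs, the hormone gastrin), Cck (470, cholecystokinin), AC134224.3 (447), Tff3 (408, a trefoil peptide secreted with mucus) and Chgb (401, a granin of secretory granules), with 82 UMIs of Sct, secretin, and 29 of Epcam. Krt19, Sox9, Cftr, Gcg and Sst were at 0. Its 30 UMIs of Prss1 and 16 of Ins1 were close to the mean of immune cells in that library. Without this 1 cell the totals over all rats were 445 UMIs of Agr2 and 108 of Agr3.

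Outside that barcode, 50 Agr3 UMIs lay in immune cells, the largest class with 39566 cells. Their level of 0.157 CPM (0.116 to 0.206) had an interval that overlapped those of stromal (0.0270 to 0.160) and islet cells (0.0212 to 0.152). Agr3 was also found in a small number of cells that hold genes of absorptive gut epithelium (39 UMIs among 49 cells). The genes raised most in cells with Agr3 were Fabp1 and Rbp2, which bind fatty acids and retinol, and Apoa1, an apolipoprotein, each found in about 26% of the 90 cells. After these values were seen, Fabp1, Rbp2, Apoa1, Alpi (intestinal alkaline phosphatase) and Si (sucrase-isomaltase) were taken to divide the Epcam cells, so the division rests on the same cells. Of 38 Epcam cells with 3 or more of the 5 genes, 22 held Agr3 (57.9%, 95% Clopper-Pearson interval 40.8 to 73.7), at a median depth of 14958.5 UMIs. Of 5860 Epcam cells with 2 or fewer, 8 held it (0.137%, 0.0590 to 0.269), at a median depth of 11577.5 UMIs, the barcode with 200 Agr3 UMIs being 1 of the 8. Agr2 was found in 1 of the 38 cells (2.63%) and in 20 of the 5860 (0.341%).

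Among ductal cells, 6 held 3 or more of the 5 genes, and all 6 held Agr3, with 13 UMIs (71.8 CPM, 38.2 to 123). The other 338 held 2 UMIs (0.692 CPM, 0.0838 to 2.5), both in old replicate 1. The cells with 3 or more of the 5 genes were not of 1 group. Counting all classes they numbered 20 in young replicate 1, 9 in old replicate 2, 19 in HFHF-old replicate 1, 1 in HFHF-old replicate 2 and 0 in the remaining rats, with 12, 11, 16, 0 and 0 UMIs of Agr3.

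**Figure D5:**
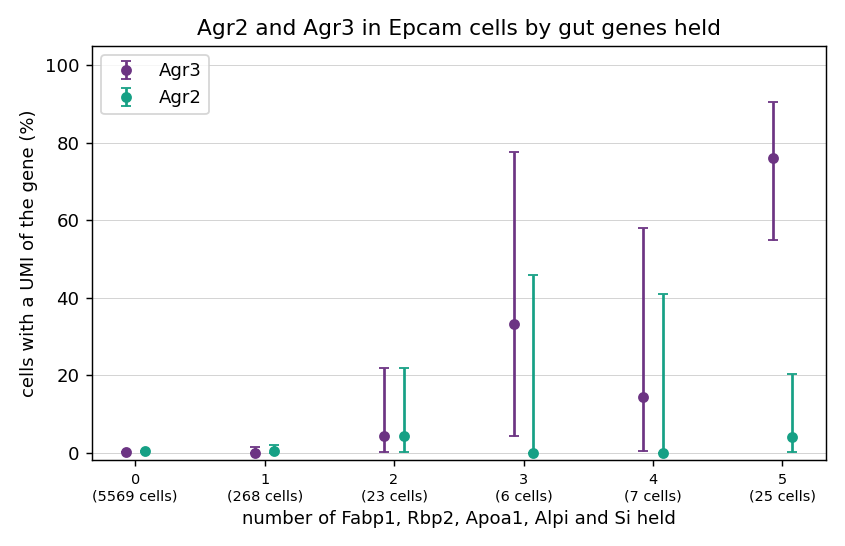
Share of Epcam cells with a UMI of Agr3 (purple) or Agr2 (green) by how many of Fabp1, Rbp2, Apoa1, Alpi and Si the cell held, with 95% Clopper-Pearson intervals and the number of cells under the axis. The share with Agr3 was 0.126% with none of the 5 genes and 76.0% with all 5, while Agr2 stayed between 0% and 4.35%.

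Txndc12 was found in every class and served as a comparison within the family. Ductal cells had 53.6 to 61.6 CPM in the 5 rats with 16 or more cells, stromal cells 42.2 to 55.3, immune cells 35.9 to 41.0, islet cells 13.2 to 24.3, acinar cells 3.61 to 8.38 and endothelial cells 68.8 to 206. Its log2 fold change in ductal cells was 0.06 ± 0.31 (SE) in old against young rats and 0.05 ± 0.38 in HFHF-old against old, and in islet cells it was -0.00077 ± 0.36 and -0.18 ± 0.44. None passed the test (edgeR quasi-likelihood, adjusted p = 1.00, 0.964, 1.00 and 0.962). Agr2 and Agr3 were too low to enter any of these tests.

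The wider folding machinery, mucous genes and duct genes were tested on UMIs summed per rat and class, with a call at an adjusted p under 0.05 and a change over 1.5-fold. The fits of islet and ductal cells left out HFHF-old replicate 2, so its group was 1 rat assumed to vary like the others. In islet cells 0 of 13713 genes tested were called in HFHF-old against old and 0 in old against young (edgeR, background 0% in both), with 429 and 509 genes at an unadjusted p under 0.05 and 12 and 29 calls by DESeq2. The edgeR count for old against young was 855 without young replicate 1 and 6 or fewer without any other rat, and that for HFHF-old against old was 14 without young replicate 2 and 8 without young replicate 1. In acinar cells 0 of 6143 were called in both contrasts (0%), with 520 and 161 genes at an unadjusted p under 0.05 and 1 and 1 call by DESeq2, and edgeR called 17 and 10 without old replicate 1. In ductal cells 0 of 9208 were called in old against young (0%), with 263 at an unadjusted p under 0.05 and 7 calls by DESeq2, and 122 edgeR calls without old replicate 1. In the same cells 5 were called in HFHF-old against old (0.0543%). In that contrast 1147 genes had an unadjusted p under 0.05, and DESeq2 called 58. The edgeR count of 5 became 254 without old replicate 1, 225 without old replicate 2 and 61 without young replicate 1. With edgeR and the settings above no member of the 4 lists was called in any class, so a list is given by its median. Under alternatives some members had an adjusted p under 0.05, P4hb and Hspa5 in ductal cells among them.

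Of the 18 measured protein disulfide isomerases, all 18 were tested in islet cells. Their median log2 fold change was 0.15 in old against young (15 above 0) beside -0.07 for all genes, and 0.02 in HFHF-old against old (11 above 0) beside 0.05. The 3 with the highest islet level were Pdia6, Pdia3 and Erp29, at means of 255, 242 and 193 CPM, with log2 fold changes of 0.55 ± 0.48, 0.45 ± 0.42 and 0.58 ± 0.47 in old against young rats. In acinar cells P4hb, the main isomerase of the family, led with 231 CPM and had 0.21 ± 0.37 and -0.35 ± 0.37 in the 2 contrasts. The 14 genes tested there had medians of -0.03 and 0.05, beside 0.008 and -0.03 for all genes.

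The ER stress response list held chaperones and factors that rise with misfolded protein. In islet cells 21 of 24 tested genes were above 0 in both contrasts, with medians of 0.43 in old against young and 0.36 in HFHF-old against old, beside -0.07 and 0.05 for all genes, and 0 were called. Hspa5, the chaperone BiP, was the highest at 336 CPM, with 0.65 ± 0.43 and 0.28 ± 0.52. In acinar cells the medians were 0.13 and 0.16, beside 0.008 and -0.03 for all genes, and Sel1l, of the degradation pathway, led with 138 CPM.

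In ductal cells the highest of these genes in HFHF-old replicate 1 had most of their UMIs in its 4 cells with gut genes. P4hb had a log2 fold change of 2.01 ± 0.38 and Hspa5 one of 1.78 ± 0.38 (edgeR adjusted p = 0.106 and 0.130, with 0.000563 to 0.803 and 0.00729 to 0.708 over the alternatives). For P4hb these 4 cells held 181 UMIs and the other 19 ductal cells of that rat 46, and for Hspa5 they held 201 and the others 128. Without all 6 ductal cells with gut genes, 2 of which were in old replicate 2 and held 66 UMIs of P4hb, the changes were 0.39 ± 0.34 and 0.86 ± 0.38 (edgeR adjusted p = 0.803 and 0.708). Of the 5 called genes, named after their values were seen, Slc26a3 (an intestinal chloride exchanger), Akp3 (an alkaline phosphatase of the gut) and Ptprr had 299, 144 and 49 UMIs in these 4 cells and 0 in the other 19. AC142181.2 and LOC683849 had 25 and 15 UMIs in the 4 cells and 102 and 65 in the other 19. The log2 fold changes were 7.62 for Slc26a3, 8.02 for Akp3, 6.08 for Ptprr, 10.85 for AC142181.2 and 8.43 for LOC683849 (edgeR adjusted p = 0.0482 each). As several rats had 0 UMIs of these genes, the sizes depend on the prior count and are no bound. Without the cells with gut genes, 3 of 9009 genes were called, AC142181.2, LOC683849 and Akr1b8. With all ductal cells kept, the 15 tested isomerases had a median of 0.05 and the 24 stress genes one of 0.64 in HFHF-old against old, beside -0.02 for all genes, and 0.01 and -0.06 in old against young, beside 0.01.

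Of the mucous epithelium list, 21 of 24 genes were in the files and 9 to 11 passed the low-count filter. In old against young and HFHF-old against old its medians were 0.03 and -0.34 in islet, 0.02 and -0.16 in acinar, and 0.17 and 0.02 in ductal cells. For all genes they were -0.07 and 0.05 in islet, 0.008 and -0.03 in acinar, and 0.01 and -0.02 in ductal cells. Tff2, a trefoil peptide, led in acinar cells with a mean of 2577.5 CPM, and its log2 fold change was -0.45 ± 0.41 in old against young and -0.33 ± 0.41 in HFHF-old against old. Muc13, a cell-surface mucin, had 350 UMIs in the 6 ductal cells with gut genes and 1 in the others. Dag1 (307 CPM) and Muc1 (130 CPM), a transmembrane mucin, were the other leading ones in ductal cells. The duct markers had medians of 0.07 and -0.52 in islet, 0.89 and -1.36 in acinar, and 0.26 and 0.27 in ductal cells, on 12, 6 and 14 tested genes. In acinar cells 4 of the 6 had an unadjusted edgeR p under 0.05 in HFHF-old against old, beside 520 of all 6143 genes. In old against young 1 of the 6 did, beside 161 of all 6143. Of them, Spp1, Krt18 and Krt8 led in ductal cells with 4880, 2343 and 2240 CPM, and Krt18 had 0.38 ± 0.34 and -0.52 ± 0.43 in the 2 contrasts.

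The genes with the pattern most like Agr2 over 33 sums of a class and a rat (20 or more cells each) were AABR07009931.1, Vwf, Cldn5, Fam107a and AC144674.2, with Pearson r of 0.93, 0.91, 0.90, 0.89 and 0.87 on log2(CPM + 1). Vwf and Cldn5 are known from endothelium. Those most like Agr3 were Cyp17a1, Scx, Mep1b, LOC108348140 and Cox7a1, with r of 0.94, 0.93, 0.91, 0.91 and 0.91. Agr3 itself was highest in the ductal sum of HFHF-old replicate 1 (18.9 CPM, 7 UMIs in 23 cells). The ductal sums of old replicate 2 (5.36) and old replicate 1 (2.20) followed, and every other sum was at 1.77 CPM or lower. Agr2 and Agr3 had r of -0.05 with each other. Unclassified cells, with 228 of the 308 Agr3 UMIs and 172 of the 577 Agr2 UMIs, are not in these sums. The sums of a rat share a library and its depth, and those for Agr3 rest on 80 UMIs, so these values are a description.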

How the data were processed

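The authors deposited UMI counts per gene and barcode of 10x Genomics 3' v3.1 libraries, integer count matrices with no normalization. Cell Ranger wrote them (5.0.0 per the file headers), with Rnor_6.0 in the submitters' processing notes. Barcodes with fewer than 200 genes, over 25% mitochondrial UMIs or in the top 1% of gene number over all libraries were left out. The limits are those the study names, but fewer cells were kept than it states, and how it applied them is not given in the sources used here. Of the 780 barcodes over that limit here, 521 were in HFHF-old replicate 1. Library totals were 77387928 to 166875258 UMIs. Doublet-like barcodes were scored with scrublet in scanpy 1.11.5 and kept, except in 1 alternative. Levels are CPM, UMIs per 1000000 UMIs of a class, with exact 95% intervals for counting error. Sums per rat and class were tested with edgeR 4.0.16 (filterByExpr, TMM, quasi-likelihood, Benjamini-Hochberg), with DESeq2 1.42.0 as an alternative, in fits of all 3 groups that took rats with 10 or more cells. The scripts were run on simulated data. There the islet and acinar fits left most changed genes uncalled, and the ductal fit called some unchanged genes. A count of 0 calls therefore does not show that nothing changed. Members and lists were chosen with earlier results of these data known. Named are Agr2, Agr3, Txndc12, called list members or otherwise the 3 highest of each list, the 5 genes most like each member, and the free RNA references. Rats are the replicates, and p-values cover the spread between these rats only. UMIs from overlapping or unplaced copies of a gene cannot be told apart in these tables. Alternatives were other class limits, no gene-number limit, other references, thinning, and fits without a filter, with a replicate block or without each rat. Reads, plasma and tissue measurements were not analysed here.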

Additional observations from a re-analysis of the deposited data

Results flagged for a closer look

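Both genes had UMIs in barcodes that the comparisons do not use, above the limit of 3 counts. The 2823 barcodes left out by the filters held 45 Agr3 UMIs in 21 barcodes and 16 Agr2 UMIs. Of the Agr3 UMIs 23 were in young replicate 1, 7 in old replicate 2 and 15 in HFHF-old replicate 1, and 19 of the 21 barcodes held 3 or more of Fabp1, Rbp2, Apoa1, Alpi and Si. All 16 Agr2 UMIs were in barcodes over the gene-number limit. Cells that met 2 class definitions held 22 Agr2 UMIs in 17 cells, 10 of which met the islet and the immune definition.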

How the results depend on the processing

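All 58 alternative values for the levels of Agr2 and Agr3 in the 4 classes moved by no more than the SD over rats, and Agr2 in ductal cells was at 0 under each. That margin is wide for Agr3 in ductal cells, where the rats ran from 0 to 18.9 CPM, so the count of 58 says little there. Leaving out the ductal cells with 3 or more gut genes, an alternative chosen after seeing the data, lowered Agr3 in ductal cells from 4.89 to 0.692 CPM. The log2 ratio of islet to immune Agr2 in HFHF-old replicate 1 was -2.0 and stayed between -2.89 and -0.93 under 11 alternatives. With stromal cells as the reference, where 1 UMI stood against 1, it was 2.12. For Agr2 in young replicate 1, 0.04, it was 2.34 with immune cells lacking Siglech, Cd79b, Irf8 and Vwf as the reference, and the other 66 of 68 alternative ratios stayed within their counting intervals. References with 0 UMIs gave no ratio, as for Agr2 against stromal cells in young replicate 1. Islet counts of 0 gave no ratio for Agr3 in HFHF-old rats.

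Counts of called genes depended on the settings, and the cause was not tested. Given in the order HFHF-old against old and old against young, DESeq2 called 12 and 29 genes in islet, 1 and 1 in acinar, and 58 and 7 in ductal cells. Without a low-count filter they were 88 and 444, 93 and 28, and 623 and 137. The replicate numbers are shared by the groups, but nothing pairs the rats and same-numbered rats deviated together with r from 0.01 to 0.30. The fit with the replicate block gave 1 and 1, 2 and 3, and 168 and 1. Leaving out each rat in turn gave 0 to 14 and 0 to 855 in islet, 0 to 17 and 0 to 10 in acinar, and 6 to 254 and 0 to 122 in ductal cells. The 855 came without young replicate 1, the 14 without young replicate 2, the 17 and the 10 without old replicate 1, and the 254 and the 122 without old replicate 1, while the ductal HFHF-old contrast gave 225 without old replicate 2 and 61 without young replicate 1. Without the lone HFHF-old rat the islet and ductal HFHF-old contrasts could not be fitted. Without the ductal cells with gut genes the ductal counts were 3 and 0. With 2 rats a group, few UMIs of Agr2 and Agr3 and 5 islet cells in HFHF-old replicate 2, large differences may have gone uncalled as well as small ones.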

Other observations

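Agr2 was also found in 25 unclassified cells without Epcam, with 34 UMIs. Of these, 15 cells and 20 UMIs were in old replicate 2, at a median depth of 813 UMIs, and the other 5 rats had 0 to 5 such cells each.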
